A study of Drosophila melanogaster with 5 samples.

Results

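The sperm leucyl aminopeptidases (S-Laps) of Drosophila melanogaster were described here by the transcripts found on testis ribosomes. The family was chosen by gene name: all rows of the deposited table whose symbol starts with S-Lap, together with loopin-1, which is also listed as S-Lap6 in the RefSeq gene table. This gave 8 genes of 12847 in the table, namely S-Lap1, S-Lap2, S-Lap3, S-Lap4, S-Lap5, S-Lap7, S-Lap8 and loopin-1. RNA was sequenced from ribosomes precipitated with antibodies to βNACtes, a germline paralog of the β-subunit of NAC, the nascent polypeptide associated complex (βNACtes IP, 3 libraries), and from total ribosomes of the same kind of extract (2 libraries). Both groups came from testes of adult males of the Batumi laboratory strain, 1000 testes for an extract, and the labels name no other treatment or allele. The antibodies recognize several near-identical βNACtes proteins, and total ribosomes also hold those of the other cells of the dissected tissue. The table holds the authors' mean of each group and no values of single libraries, so values come without replicate error, no test was possible, and the depth of the libraries is unknown. A difference between the groups can therefore not be set against the spread between replicates. How many libraries went into each mean cannot be checked from the values.

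Leucyl aminopeptidases of the M17 family are metal-dependent enzymes that remove amino acids from the N-terminus of peptides. Whether the S-Laps have this activity was not examined here. In the fly testis the mitochondria of the spermatid fuse into a nebenkern, which then unfolds into mitochondrial derivatives that elongate beside the axoneme and fill with a paracrystalline material. The S-Laps are among the most abundant proteins of Drosophila sperm and are constituents of this material. Most genes for sperm proteins are transcribed in spermatocytes, and many of their mRNAs are stored and translated only after meiosis. The βNACtes protein is likewise found mostly in spermatocytes. The βNACtes IP was aimed at mRNAs on ribosomes that carry this subunit, and it does not tell stored from translated mRNAs. It also held transcripts of the somatic accessory gland, which the paper reports as unstained for the subunit. The 7 such genes listed below summed to 10152 FPKM (fragments per kilobase, scaled to library size) there. A level in the βNACtes IP need therefore not stand for ribosomes with the subunit alone, and the size of this part was not tested.

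The 8 genes were at a high level on testis ribosomes and, with the exception of S-Lap5, at a higher level in the βNACtes IP than in total ribosomes relative to the median gene. Summed over the family, the level was 13099 FPKM (fragments per kilobase, scaled to library size) in the βNACtes IP and 3495 FPKM in total ribosomes, a ratio of 3.75. The family took 1.63% of the sum of all values in the βNACtes IP, against 0.243% in total ribosomes. In the βNACtes IP 7 of the 8 genes were above 1000 FPKM, a level reached by 91 genes of the table, whereas in total ribosomes 0 of the 8 were above it, among 172 genes. Likewise 7 members stood among the 100 highest genes of the βNACtes IP and 0 among the 100 highest of total ribosomes. Shares and ranks also depend on the other genes of each column. The gene with the largest value in total ribosomes held 14.3% of the sum there, against 3.33% in the βNACtes IP. For comparison, the median gene of the table was at 7.05 FPKM in the βNACtes IP and 4.32 FPKM in total ribosomes.

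S-Lap1 (FBgn0035915), a leucyl aminopeptidase of the sperm mitochondrial derivative, was the most abundant member, with a mean of 3232 FPKM in the βNACtes IP and 821 FPKM in total ribosomes. It ranked 15 among all genes of the table in the βNACtes IP, against 193 in total ribosomes. Loopin-1 (FBgn0259795), first described as a protein of a Y chromosome loop of spermatocytes and of sperm tails, followed with 2180 FPKM in the βNACtes IP and 504 FPKM in total ribosomes. S-Lap7 (FBgn0033868) was close to it in the βNACtes IP with 2051 FPKM, against 757 FPKM in total ribosomes, where it was the member nearest to S-Lap1. These 3 genes led the family in both groups, and the order of loopin-1 and S-Lap7 was exchanged between them.

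The middle of the family was less evenly placed. S-Lap4 (FBgn0052064) had 1538 FPKM in the βNACtes IP and 238 FPKM in total ribosomes. It was thus at order 4 in the βNACtes IP and at order 7 in total ribosomes, the largest exchange of place among the 8 genes. S-Lap2 (FBgn0052351) had 1405 FPKM in the βNACtes IP and 448 FPKM in total ribosomes. S-Lap8 (FBgn0034132) had 1390 FPKM in the βNACtes IP and 253 FPKM in total ribosomes. S-Lap2 and S-Lap8 were therefore at nearly the same level in the βNACtes IP, with a ratio of 1.01, although S-Lap2 was above S-Lap8 in total ribosomes. S-Lap3 (FBgn0045770) had 1036 FPKM in the βNACtes IP and 263 FPKM in total ribosomes.

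S-Lap5 (FBgn0033860) was the lowest member in both groups, with 268 FPKM in the βNACtes IP and 212 FPKM in total ribosomes. In total ribosomes it lay at the end of a close series, since S-Lap3, S-Lap8, S-Lap4 and S-Lap5 followed each other with steps of 1.04, 1.06 and 1.12 times. In the βNACtes IP, in contrast, the next gene above it, S-Lap3, was 3.87 times as high. The highest member was 12.1 times the lowest in the βNACtes IP and 3.86 times in total ribosomes, and without S-Lap5 3.12 times in the βNACtes IP and 3.44 times in total ribosomes. S-Lap5 ranked 517 among all genes of the table in the βNACtes IP, against 595 in total ribosomes. The step from S-Lap2 to S-Lap3 in total ribosomes was 1.70 times, and the remaining steps between neighbours in either order were of 1.01 to 1.5 times. With 1 mean per group, no step could be set against its spread, and the smaller ones give no firm order.

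**Figure D1:**
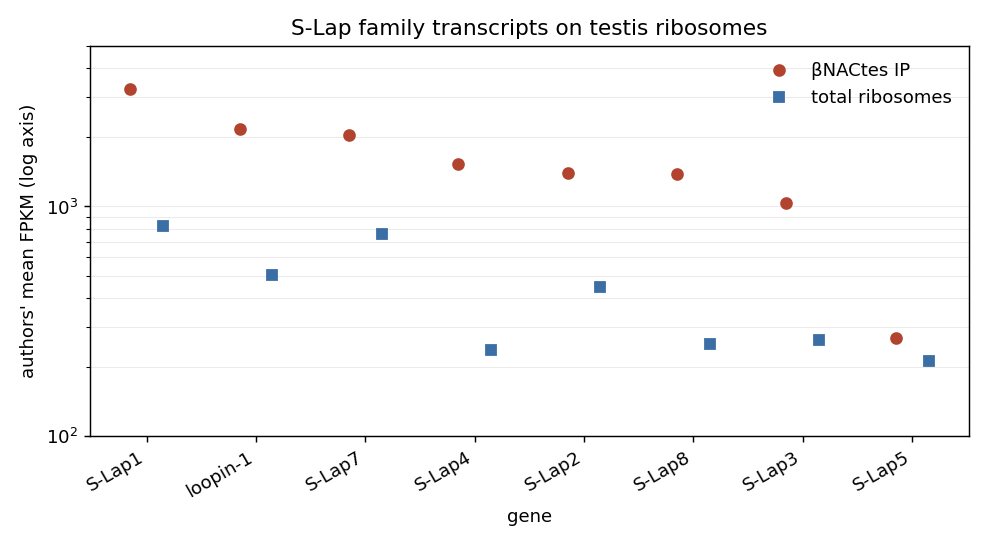
Authors' mean level of each S-Lap gene (FPKM, log axis) for the βNACtes IP (circles) and total ribosomes (squares), with genes ordered by the βNACtes IP. All genes but S-Lap5 lie between 1036 and 3232 FPKM in the βNACtes IP and between 238 and 821 FPKM in total ribosomes, whereas S-Lap5 has 268 FPKM in the βNACtes IP and 212 FPKM in total ribosomes. Each point is 1 mean, without error bars.

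The make-up of the family differed accordingly. S-Lap1 contributed 24.7% of the family's summed FPKM in the βNACtes IP, against 23.5% in total ribosomes, and S-Lap3 contributed 7.91% in the βNACtes IP, against 7.52% in total ribosomes, so that both kept nearly the same share. S-Lap7 had a smaller share in the βNACtes IP (15.7%) than in total ribosomes (21.7%). S-Lap5 had 2.04% in the βNACtes IP, against 6.08% in total ribosomes. S-Lap4 went the other way, with 11.7% in the βNACtes IP, against 6.81% in total ribosomes, and so did S-Lap8 with 10.6% in the βNACtes IP, against 7.24% in total ribosomes. These shares do not depend on how the columns are scaled against each other.

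**Figure D2:**
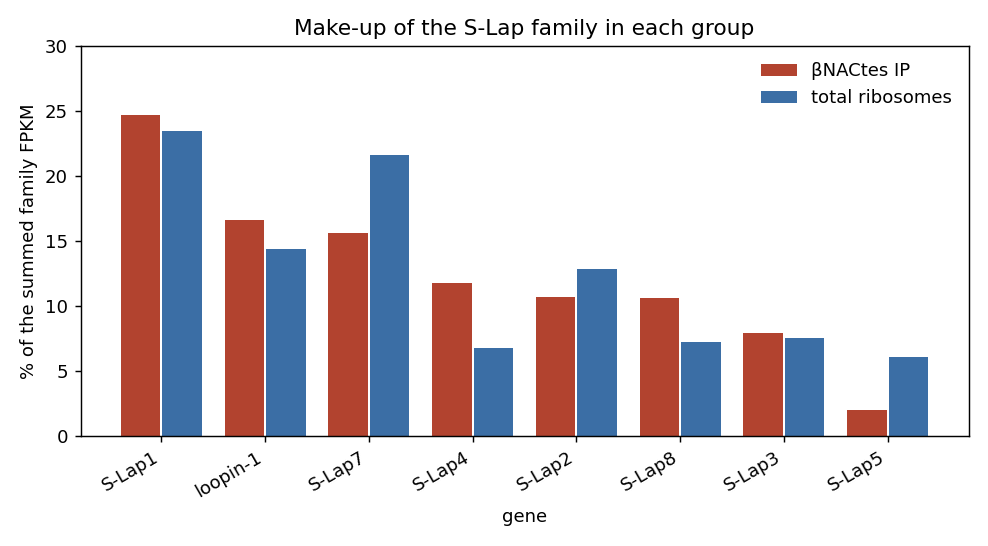
Share of each gene in the summed FPKM of the 8 S-Lap genes (%), with the βNACtes IP as left bars and total ribosomes as right bars. S-Lap4 and S-Lap8 have larger shares in the βNACtes IP (11.7% and 10.6%) than in total ribosomes (6.81% and 7.24%), whereas S-Lap7 and S-Lap5 have smaller ones.

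To compare the family with the other transcripts, the log2 ratio of the βNACtes IP over total ribosomes was computed as log2(FPKM + 0.1) and given relative to its median of 0.73 over the 9793 genes whose 2 columns averaged 1 FPKM or more. All 8 members passed this filter. A gene was called higher from a relative log2 ratio of 1 upwards and lower from −1 downwards. Of the 8 members 5 were called higher, beside 26.4% of all genes, and 0 were called lower, beside 29.2% of all genes. The relative log2 ratio was 1.96 for S-Lap4, 1.73 for S-Lap8, 1.38 for loopin-1, and 1.25 for S-Lap3 as for S-Lap1. S-Lap2 with 0.92 and S-Lap7 with 0.71 were above the median of all genes and short of the threshold. The median of the family was 1.25, against 0 for all genes by construction and an upper quartile of 1.08.

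S-Lap5 stood apart from the other members in this measure. Its relative log2 ratio was −0.40, at which 41.3% of all genes were lower, and it lay 1.11 below that of S-Lap7, whereas the other 7 members covered a range of 1.25. Its FPKM was 1.26 times higher in the βNACtes IP than in total ribosomes, against 2.71 to 6.46 times for the others. The sign for S-Lap5 depends on the scaling: it was −0.40 after centring, 0.33 for the uncentred FPKM and 1.17 when both columns were scaled to the same sum (TPM). Its place below the median gene and below the other members holds for each of these scalings, since they move all genes together. The ratios of the other members stayed above 0 in each of the settings tried. Without S-Lap5 the summed ratio of the family was 3.91 in place of 3.75.

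The count of members called higher also depends on the scaling, as does that of all genes. It was 7 of 8 with the deposited values, beside 43.6% of all genes, and 8 of 8 with TPM scaling, beside 62.1% of all genes. In TPM the family summed to 16319 in the βNACtes IP, against 2435 in total ribosomes, a ratio of 6.70. The ratio of the sums is thus known only within this choice of scaling, whereas the order of the members by their ratio does not depend on it, apart from S-Lap1 and S-Lap3, which are equal to the digits given.

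**Figure D3:**
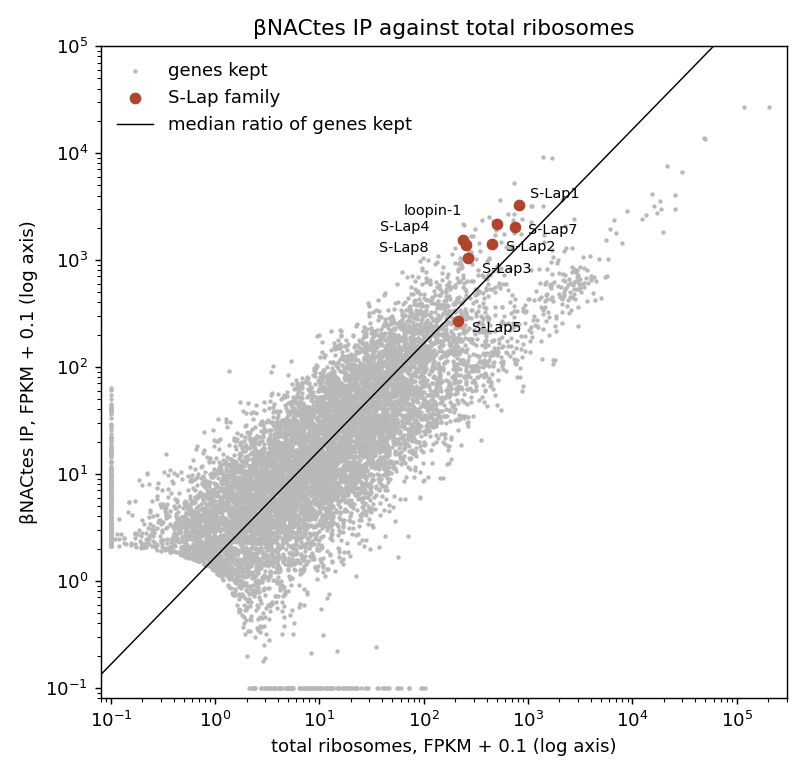
Level in the βNACtes IP against that in total ribosomes (FPKM + 0.1, both axes log) for the 9793 genes kept (grey) and the 8 S-Lap genes (red), with a line at the median log2 ratio of 0.73. The S-Lap genes lie above the line except S-Lap5, while many other genes of the same level in total ribosomes lie below it.

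The family belongs to the highly expressed genes, which on the whole had lower ratios. Among the 1391 genes with a mean of at least 100 FPKM, which include all 8 members, the median relative log2 ratio was −0.46, the quartiles were −2.19 and 0.78, and 19.7% were called higher and 41.4% lower. S-Lap5 with −0.40 was near the median of this group, and S-Lap7 with 0.71 was below its upper quartile. The other 6 members were above it.

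The genes lie on chromosome arms 3L and 2R, 4 on each, in the BDGP6 annotation (Ensembl release 115), and the submitters' notes name dm3, so the coordinates given here are those of the annotation alone. On 3L, S-Lap1 (from 8617235 to 8619474) and S-Lap2 (from 8619888 to 8622091) follow each other on the plus strand with 413 bp between them. They differed by 0.33 in the relative log2 ratio and by 2.30 times in level in the βNACtes IP and 1.83 times in total ribosomes. S-Lap3 (from 10465187 to 10468974) and S-Lap4 (from 10490861 to 10492934) lie 21886 bp apart on the plus strand. They were at similar levels in total ribosomes, S-Lap3 being 1.10 times S-Lap4, but in the βNACtes IP S-Lap3 was 0.673 times S-Lap4.

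On 2R, S-Lap5 (from 13596677 to 13598750, plus strand) and S-Lap7 (from 13778124 to 13780245, minus strand) are 179373 bp apart. S-Lap5 was at 0.130 times the level of S-Lap7 in the βNACtes IP and at 0.281 times in total ribosomes. S-Lap8 (from 16491100 to 16493233) and loopin-1 (from 16534943 to 16537086) lie on the plus strand with 41709 bp between them. S-Lap8 was at 0.638 times the level of loopin-1 in the βNACtes IP and at 0.502 times in total ribosomes. The members of 3L summed to 7211 FPKM in the βNACtes IP and 1770 FPKM in total ribosomes, those of 2R to 5888 FPKM in the βNACtes IP and 1726 FPKM in total ribosomes, so both arms contributed nearly alike in total ribosomes.

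All members are short genes with few introns. S-Lap4, S-Lap5 and S-Lap7 have a single exon in each annotated transcript, S-Lap8 has 2 exons, and S-Lap1 and S-Lap2 have 3. S-Lap3 and loopin-1 have transcripts of 1 or 2 exons. The annotated proteins have 524 residues (S-Lap4) to 555 residues (S-Lap1), with 549 residues for S-Lap5. Exonic length ranged from 2055 bp (S-Lap8) to 2144 bp (loopin-1), apart from 3014 bp for S-Lap3, whose transcripts differ. S-Lap5, which had the lowest ratio, and S-Lap4, which had the highest, have the same exonic length (2074 bp) and a single exon each. Relative to the median of the 1588 genes of 2055 to 3014 exonic bp, the median of the family was 1.17, and 5 members were called higher, beside 25.1% of all genes.

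Genes around the members were less abundant. The 10 overlapping or adjacent genes with a value, knon left out, had 0.29 to 75.6 FPKM in the βNACtes IP and 0.04 to 38.9 FPKM in total ribosomes. CG6282, 160 bp before S-Lap1, had 0.55 FPKM in the βNACtes IP and 0.195 FPKM in total ribosomes, and Zasp66, 2279 bp after S-Lap2, had 7.08 FPKM in the βNACtes IP and 2.67 FPKM in total ribosomes. S-Lap7 lies within Cpr50Ca, a gene of the other strand with which it shares no exonic base, and this gene had 0.49 FPKM in the βNACtes IP and 0.04 FPKM in total ribosomes. S-Lap4 lies in an intron of Rbfox1 on the same strand, and the end of S-Lap2 shares 53 bp of exon with GAPsec on the other strand. The levels of Rbfox1 and GAPsec were not analysed here. The gene 119 bp before S-Lap5 is fand, the gene of a splicing factor. It had 4.70 FPKM in the βNACtes IP and 7.46 FPKM in total ribosomes.

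The neighbour of S-Lap8 on its right, knon, 3655 bp away on the other strand, was an exception. Its product, a relative of the ATP synthase subunit d, is needed to shape the nebenkern. It had 249 FPKM in the βNACtes IP and 63.5 FPKM in total ribosomes, with a relative log2 ratio of 1.24. S-Laps are paralogs, and how reads that match several of them were divided is not given in the sources used here. Their nucleotide sequences were not compared, so the levels of single members are less certain than the sum of the family.

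The M17 family of the fly has relatives outside the sperm group, granny smith (grsm) and Dip-B. Dip-B, a dipeptidase, had 77.5 FPKM in the βNACtes IP and 133 FPKM in total ribosomes, with a relative log2 ratio of −1.51, which was 0.06 with TPM scaling. Grsm was listed at 0 in the βNACtes IP and had 10.1 FPKM in total ribosomes. Both were below every S-Lap gene in level in each group, and both were called lower by the centred ratio, as were 29.2% of all genes. The call for grsm rests on the value listed at 0, and whether that stands for a missing value is not known.

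Genes for other proteins of the mitochondrial derivative and the nebenkern were compared with the S-Laps as a list of 14, of which 13 were found and kept. Of these 5 were called higher (26.4% of all genes) and 0 lower (29.2% of all genes), with a median relative log2 ratio of 0.66, and with TPM scaling all 13 were called higher, beside 62.1% of all genes. Don juan (dj), a protein of the sperm tail, had 638 FPKM in the βNACtes IP and 82.3 FPKM in total ribosomes (relative log2 ratio 2.22), and Cyt-c-d, the cytochrome c of the male germline, had 780 FPKM in the βNACtes IP and 212 FPKM in total ribosomes (1.15). Porin2, a channel protein of the outer mitochondrial membrane, had 724 FPKM in the βNACtes IP and 584 FPKM in total ribosomes (−0.42, and 1.15 with TPM scaling), a pair of values close in ratio to S-Lap5. Milkah (mil), which is related to nucleosome assembly proteins, had 637 FPKM in the βNACtes IP and 282 FPKM in total ribosomes (0.44).

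Among genes for sperm tail and sperm chromatin proteins, 9 of the 13 names were found. Of these 3 were called higher (26.4% of all genes) and 1 lower (29.2% of all genes), with a median of 0.52. With TPM scaling 8 were called higher, beside 62.1% of all genes, and 0 lower, beside 8.75%. The most abundant, Mst84Da, a member of the Mst(3)CGP group of sperm tail proteins, had 8935 FPKM in the βNACtes IP and 1704 FPKM in total ribosomes (1.66). Its neighbour in the same group, Mst84Db, had 1302 FPKM in the βNACtes IP and 2325 FPKM in total ribosomes (−1.57, and 0.00 with TPM scaling). Mst87F had 3612 FPKM in the βNACtes IP and 2116 FPKM in total ribosomes (0.04), and Mst84Dc had 2240 FPKM in the βNACtes IP and 1056 FPKM in total ribosomes (0.36). Members of this group ran from −1.57 to 1.66, a wider range of ratios than that of the S-Laps. The wider range rests on Mst84Db alone, since the next lowest of the group, Mst84Dd, was at −0.49.

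**Figure D4:**
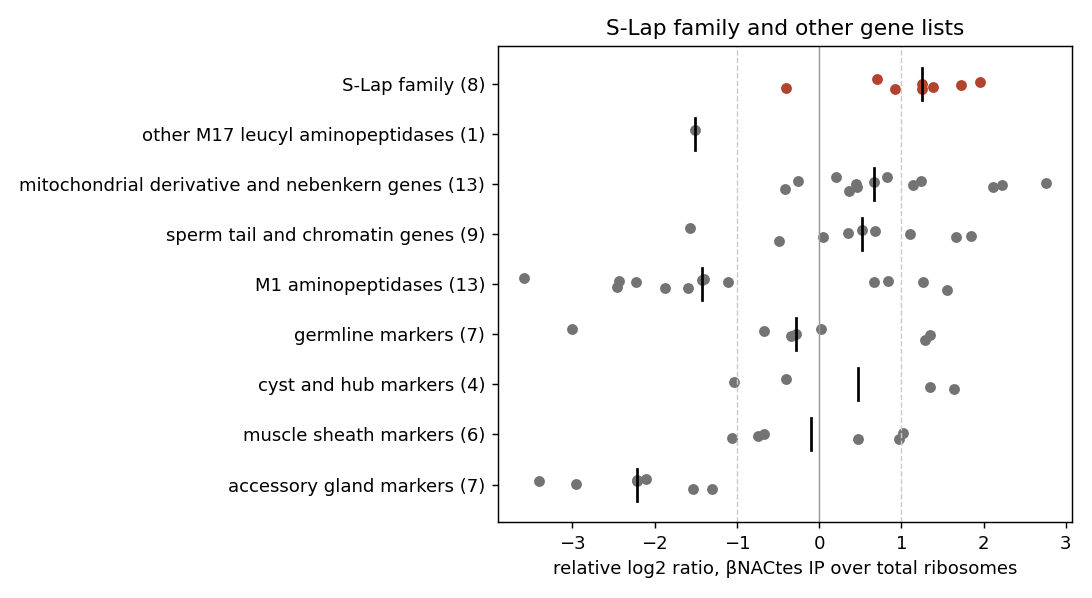
Relative log2 ratio of the βNACtes IP over total ribosomes for the genes of each list that were kept and not listed at 0 (number in parentheses), with the median as a bar and dashed lines at −1 and 1. The S-Lap genes run from −0.40 to 1.96 with a median of 1.25, those of the mitochondrial derivative and nebenkern have a median of 0.66, and the accessory gland markers have a median of −2.21.

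The tissue was checked by markers of its cell types. Of 7 germline markers found 2 were called higher (26.4% of all genes) and 1 lower (29.2% of all genes), with a median relative log2 ratio of −0.28. They ran from the meiotic arrest gene aly, with 17.3 FPKM in the βNACtes IP and 84.0 FPKM in total ribosomes, to the boule gene bol, with 379 FPKM in the βNACtes IP and 89.7 FPKM in total ribosomes. The 5 markers of cyst and hub cells summed to 18.8 FPKM in the βNACtes IP and 8.58 FPKM in total ribosomes. Of the 4 kept, 2 were called higher (26.4% of all genes) and 1 lower (29.2% of all genes), with a median of 0.47. The 6 markers of the muscle sheath summed to 148 FPKM in the βNACtes IP and 143 FPKM in total ribosomes. Of these 1 was called higher and 1 lower, beside the same shares of all genes, with a median of −0.10. Both medians were above that of the germline markers, but all 3 rest on few genes. The germline median is the value of bam, with 1.26 FPKM in the βNACtes IP and 0.895 FPKM in total ribosomes, near the filter of 1 FPKM. The medians therefore give no order of germline and somatic cells. Markers of the accessory gland, a somatic gland that is not part of the testis, were abundant. Their 7 genes summed to 10152 FPKM in the βNACtes IP (1.26% of all values) and 42923 FPKM in total ribosomes (2.99%), and all 7 were called lower, beside 29.2% of all genes. Scaled to TPM, 2 stayed at or below the threshold for lower, where 8.75% of genes were. The percentages hold for the list alone, which leaves out other abundant genes named as accessory gland proteins. Acp95EF had 13787 FPKM in the βNACtes IP and 48581 FPKM in total ribosomes. Acp53C14a had 3003 FPKM in the βNACtes IP and 25506 FPKM in total ribosomes. The part of accessory gland transcripts in the ratios of the S-Lap genes was not tested. Such bulk samples do not show which cells a transcript came from. A difference in the tissue that went into each extract and a difference in what was precipitated cannot be told apart.

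The genes with values most like the family were found by their distance from the median member on the log2 scale of both columns. They were CG3982 with 1437 FPKM in the βNACtes IP and 335 FPKM in total ribosomes (distance 0.05), CG5089 with 1221 FPKM in the βNACtes IP and 347 FPKM in total ribosomes (0.27), and CG12861 with 1669 FPKM in the βNACtes IP and 297 FPKM in total ribosomes (0.28). The likeness rests on 2 values per gene.

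**Figure D5:**
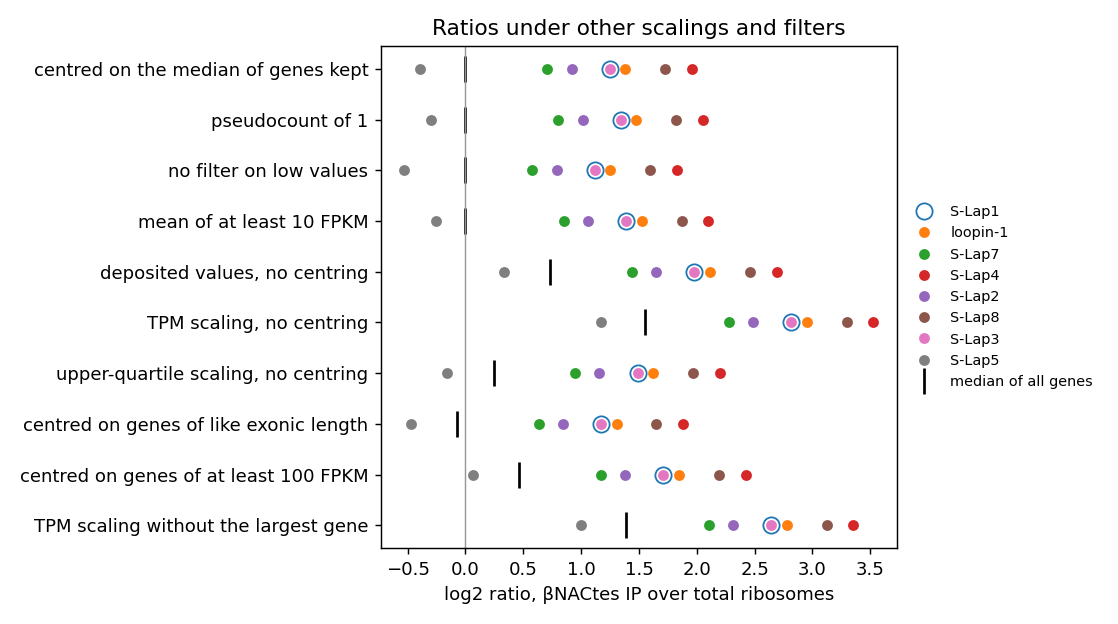
Log2 ratio of each S-Lap gene (coloured points, S-Lap1 as an open circle around S-Lap3) under each scaling or filter, with the median of all genes as a black bar. All points move together, S-Lap5 is below the median of all genes in every setting shown and the other 7 are above it, from 0.71 to 1.96 with centring on the median.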

How the data were processed

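The authors sequenced RNA of βNACtes IP ribosomes (3 libraries) and total ribosomes (2 libraries) and deposited 1 table of FPKM values with the authors' mean of each group. The header names no unit. The submitters' processing notes name TopHat2 2.0.14, Bowtie2, Cufflinks 2.2.1 and dm3, and Cufflinks writes FPKM. The deposited column of log2 ratios is the authors' own comparison and was not used.

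Log2 ratios were computed from log2(FPKM + 0.1), which understates the change of low genes, over genes with a mean of at least 1 FPKM (9793 of 12847 rows), and centred on their median. A log2 ratio of 1 was used as the threshold in place of a test. TPM were obtained by dividing each value by its column total. Locations and exonic lengths come from the Ensembl release 115 annotation, in which 136 rows have no match. List genes were matched by symbol, gene ID or CG name. No sequence was used here.

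The members and gene lists were chosen with earlier results of these data known. Named genes are the members, at most 4 of each list with the highest mean, and the 3 genes nearest to the median member. The neighbours of the members, aly and bol as ends of a list, and the setting with 100 FPKM were added after the values were seen. The alternatives were other pseudocounts, filters, scalings and folds. The computation was tested on simulated data. Python 3.11.15, numpy 2.4.6, pandas 2.3.3 and matplotlib 3.10.9 were used.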

Additional observations from a re-analysis of the deposited data

How the results depend on the processing

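The median log2 ratio of the 8 S-Lap genes was 1.25 and 5 were called higher, beside 26.4% of all genes. The number of members called higher and the share of all genes called higher are given in parentheses for the other settings. The median was 1.34 with a pseudocount of 1 (6, 21.8%), 1.12 without a filter on low values (5, 25.7%), 1.39 with a mean of at least 10 FPKM (6, 25.8%), 1.17 when centred on genes of like exonic length (5, 25.1%) and 1.49 with upper-quartile scaling (6, 32%). It was 1.98 with the deposited values (7, 43.6%) and 2.82 with TPM scaling (8, 62.1%). With settings chosen after seeing the data it was 1.71 when centred on genes of at least 100 FPKM (7, 37%), and 2.64 with TPM scaling without the gene of the largest value in total ribosomes (7, 58.5%), which holds 14.3% of that column. With a fold of 1.5 as the threshold 7 were higher, beside 35.9% of all genes. In each of these settings 0 members were lower, beside 8.75% (TPM scaling) to 37.3% (fold of 1.5) of all genes. The summed level was 3.75 times higher in the βNACtes IP, and 6.70 times in TPM. Among all genes past the threshold, the share of higher ones was 47.5% with centring, 70.5% with the deposited values and 87.6% with TPM scaling. No paired analysis was possible because the table holds 1 mean per group, and for the same reason no library could be left out and no replicate block fitted. Depth and replicate error are unknown.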

Other observations

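The M1 aminopeptidases, a separate family of metal-dependent enzymes that trim the N-terminus of peptides, had other values than the S-Laps. Of 20 names 16 were found and 13 were kept, of which 2 were called higher and 9 lower, with a median relative log2 ratio of −1.43, beside 26.4% and 29.2% of all genes. With TPM scaling 4 were called higher, beside 62.1% of all genes, and 1 lower, beside 8.75%. Their sum was 453 FPKM in the βNACtes IP and 273 FPKM in total ribosomes, far below that of the S-Laps. Psa, the puromycin-sensitive aminopeptidase, was the most abundant of them, with 260 FPKM in the βNACtes IP and 53.2 FPKM in total ribosomes (1.55), a level in the βNACtes IP close to that of S-Lap5. CG31198 had 9.23 FPKM in the βNACtes IP and 67.6 FPKM in total ribosomes (−3.59), CG8774 had 20.7 FPKM in the βNACtes IP and 37.7 FPKM in total ribosomes (−1.59, and −0.03 with TPM scaling), and CG32473 had 73.0 FPKM in the βNACtes IP and 27.6 FPKM in total ribosomes (0.67).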
